A study of Mus musculus with 6 samples.

Results

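Heart tissue and cell-free plasma of mice with heart failure (HF) were set side by side, for long noncoding RNAs (LncRNAs) and for messenger RNAs. The comparison rests on 2 of the 6 arrays of the series, chosen by their labels: 1 of HF heart and 1 of HF plasma. Male C57BL/6J mice were injected under the skin with isoproterenol, which stimulates β-adrenergic receptors, each day for a week, and control mice received saline. By the paper's account of the arrays, RNA of 5 mice was mixed for each condition, so that an array stands for a mixture of animals. Its account of RNA extraction names a larger number of mice for plasma. Blood was drawn by removal of an eyeball, and plasma was obtained from it by centrifugation and passed through a filter. Control heart, control plasma and whole blood of HF and control mice make up the other 4 arrays. Each condition thus has 1 array and no replicate, so the differences below carry neither a test or p value nor an SD between animals.

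Heart muscle holds large amounts of RNA for the contractile proteins, for the calcium pump of the sarcoplasmic reticulum and for the enzymes of fat oxidation and respiration. A stressed ventricle is known to raise its natriuretic peptides, hormones that act on kidney and vessels. Plasma has no cells of its own. The RNA that circulates in it is carried in vesicles, in protein complexes and in fragments of blood cells and platelets, and some of it leaves tissues when cells are damaged. LncRNAs are long transcripts without a known protein product, and many are found in few tissues.

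The array had 59729 probes apart from control spots, and 20 of these were negative controls. Values are log2 intensities of a single colour, normalized so that all 6 arrays share the same distribution (quantile normalization). Detection means that the authors' scanner software marked the probe's spots as well above background without calling them outliers. Of the 59709 probes that were not negative controls, 35.1% were detected in HF heart and 29% in HF plasma. A set of 7536 LncRNA probes could be named, of which 6574 were lincRNAs and 962 were ultraconserved regions, short stretches of the genome that vary little between mammals. A further 4085 probes of 3462 protein-coding genes could be named. The mRNA names came from a list that held probes detected in a heart: all 4085 were detected on at least 1 heart array and 98.2% on the control heart array. Counts of mRNA probes therefore describe this list and not all genes. In mixed tissue, fewer cells of a type and less RNA per cell cannot be told apart.

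Most LncRNA probes were detected in neither sample, and among the others HF plasma had more than HF heart. In HF heart 1409 of 7536 LncRNA probes (18.7%) were detected, and in HF plasma 1914 (25.4%). Of these, 511 were detected in heart and not well above background in plasma, a share of 6.78%, against 17.1% over all probes. The opposite pattern, detection in plasma and not in heart, was found for 1042 LncRNA probes, a share of 13.8%, against 11.4% over all probes. On both arrays 872 LncRNA probes were detected. The remaining 5072 were not well above background on either, apart from 39 with an outlier spot.

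For mRNA probes the order was the opposite one. In HF heart 3086 of 4085 (75.5%) were detected and in HF plasma 2653 (64.9%). In heart and not in plasma 1013 were detected (24.8%), in plasma and not in heart 621 (15.2%), and on both 2030. The choice of the list, described above, favours heart.

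Probes detected on both arrays mostly had different levels in the 2 samples. Of the 872 LncRNA probes, 101 (11.6%) favoured HF heart and 623 (71.4%) HF plasma by 2-fold or more, against 30.2% and 50% of the 10528 probes of any kind detected on both. Only 148 lay within 2-fold. The median difference of the 872, heart minus plasma, was -2.61 on the log2 scale, with quartiles of -4.28 and -0.75. Of the 2030 mRNA probes, 453 (22.3%) were at least 2-fold higher in heart, 1125 (55.4%) at least 2-fold higher in plasma and 452 within 2-fold, with a median of -1.35.

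Of 173 LncRNA probes detected on both arrays with a plasma log2 intensity of 12 or more, 135 were over 16-fold higher in plasma and 1 lay within 2-fold. The same held for 208 of 273 mRNA probes, with 10 within 2-fold, and for 948 of 1250 of all probes (75.8%), against 78% of the LncRNA and 76.2% of the mRNA probes. A choice by a high plasma level favours differences towards plasma, so these shares are a description. In the plot of heart against plasma intensity these probes form an arm above the diagonal, and a smaller arm of probes brighter in heart lies below it.

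**Figure D1:**
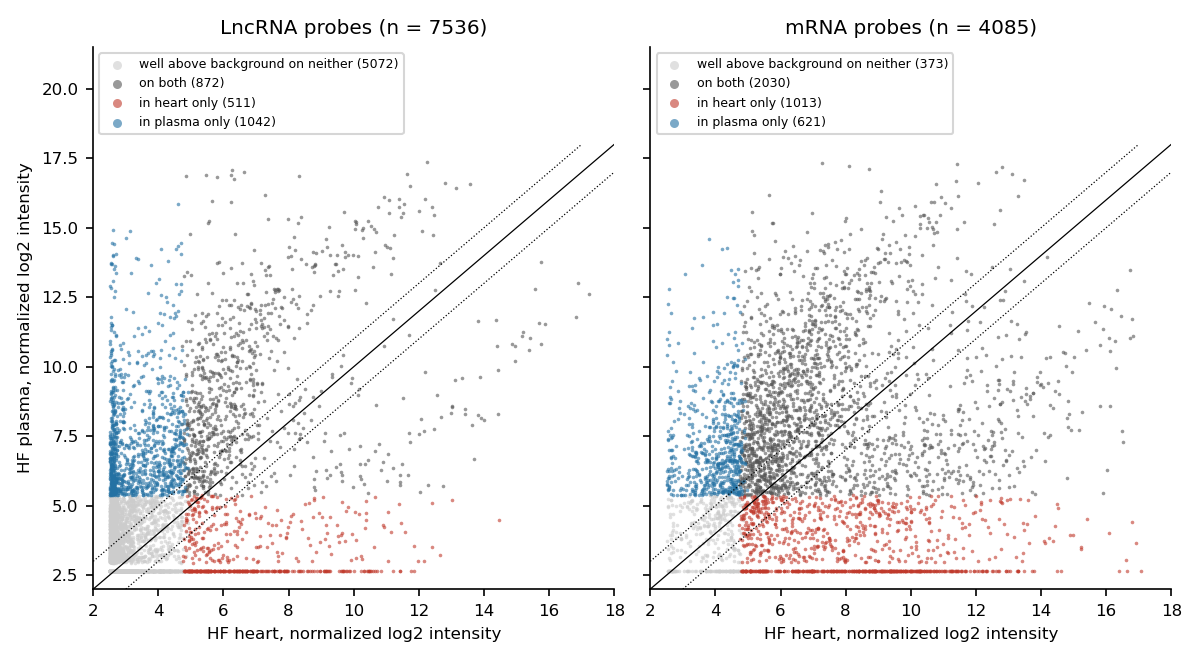
Normalized log2 intensity in HF plasma (vertical axis) against HF heart (horizontal axis), 1 point per probe, for 7536 LncRNA probes on the left and 4085 mRNA probes on the right. Colours mark detection, the solid line equality and the dotted lines a 2-fold difference. Of the LncRNA probes detected on both arrays, 623 lie at least 2-fold above equality and 101 at least 2-fold below it.

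The size of these counts depended on scaling and on the detection rule. The deposited signals were lower in plasma before normalization, with a 75th percentile of 29.2 in HF plasma and 72.8 in HF heart. Without normalization 179 LncRNA probes detected on both arrays were higher in heart and 433 higher in plasma, and 770 and 683 mRNA probes, so that the share of heart among the mRNA differences went from 28.7% to 53%. With detection set above the 99th percentile of the negative control spots, the LncRNA probes detected only in heart became 838 and those only in plasma 295, which turns their order around. In HF plasma 2 of the 20 negative probes set that limit, and without them the counts were 579 and 755. The mRNA probes detected only in plasma fell from 621 to 161 with that limit, and to 102 with the weaker flag of the scanner software.

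Detection separated the samples at different levels. The dimmest detected LncRNA probe had 4.73 in HF heart and 5.38 in HF plasma, and the brightest one not well above background 4.94 and 5.37. For a probe detected on 1 array only, the difference is given as a lower bound: the level on that array over the lowest level detected on the other one, or over the probe's own level where that was higher. By this bound 244 of the 511 LncRNA probes of heart (47.7%) were at least 2-fold and 97 at least 10-fold higher in heart, with a largest bound of 546-fold. Of the 1042 of plasma, 867 (83.2%) were at least 2-fold and 284 at least 10-fold higher in plasma, with a largest bound of 2229-fold. Among mRNA probes 404 of the 1013 of heart and 156 of the 621 of plasma passed 10-fold.

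The markers of heart muscle were bright in HF heart and dim in HF plasma, and the neutrophil marker was detected in both. Actc1 is the actin of the cardiac thin filament. Its log2 intensity was 16.07 in HF heart, and it was not well above background in HF plasma, at 4.03, so that heart was at least 1663-fold higher. The control pair was alike, at 15.73 in heart and, not well above background, 3.17 in plasma.

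Atp2a2 encodes the calcium pump of the sarcoplasmic reticulum and had 2 probes, which did not give the same picture. The brighter one had 16.91 in HF heart and, not well above background, 3.66 in HF plasma, at least 2973-fold higher in heart. The other was detected in both, at 13.82 in heart and 5.41 in plasma, a ratio of 340. Both probes thus placed heart far above plasma, and the second one read just above the detection limit in plasma.

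Nppb encodes brain natriuretic peptide, the hormone whose plasma peptide is measured in patients with HF. Its log2 intensity was 16.03 in HF heart and 6.29 in HF plasma, detected on both arrays, a difference of 9.73 with a within-array error of 0.26, or 852-fold. In control heart it was 13.33, and in control plasma it was not well above background, at 2.63. Of the 2 plasma arrays, Nppb mRNA was therefore detected in HF plasma only. Its signal in HF plasma before normalization, 37.6, passed the detection flag but lay under the 99th percentile of the negative control spots, 110.6, so that the stricter rule does not detect it there. Without the 2 brightest negative probes of HF plasma that percentile was 32.0.

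S100a9, a calcium-binding protein stored in neutrophils, was higher in plasma after normalization. It had 10.06 in HF heart and 11.92 in HF plasma, 3.62-fold higher in plasma. This direction depended on the scaling: without normalization heart was higher, with a signal of 2014 against 1453 in plasma, or 0.47 on the log2 scale. In the control pair it was 7.99 in heart and 9.77 in plasma. Gapdh, a glycolytic enzyme common to most cells, had 13.65 in HF heart and 8.95 in HF plasma, 26.1-fold higher in heart.

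**Figure D2:**
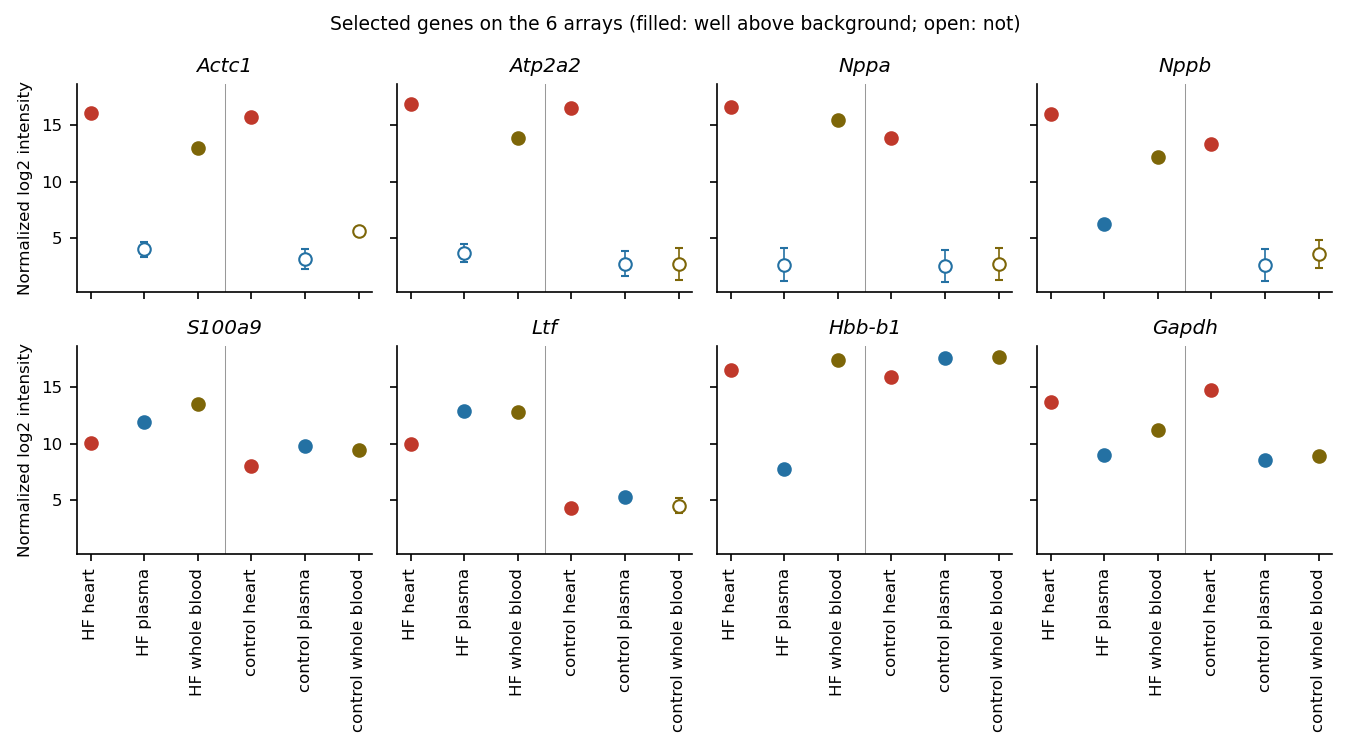
Normalized log2 intensity of 8 genes on the 6 arrays, HF on the left and control on the right of each panel. Filled circles are well above background and open circles are not, and bars are the error within an array. Actc1 and Atp2a2 are open on both plasma arrays, and Nppb is filled in HF plasma, at 6.29, and open in control plasma.

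The promoters of 3 of these 4 markers were held in the RefSeq table of the mouse genome (build GRCm38.p6), from 250 bases before the start of transcription to 50 after it. They are shown because the genes are markers, Actc1 and Nppb of heart muscle and S100a9 of neutrophils. Capitals mark TATAAA, the letters of the TATA box, and AGATAA, a sequence that GATA factors are known to bind, each searched on both strands. The 2 motifs share no overlap here. Actc1 lies at chr2:114052826-114053125 on the minus strand, Nppb at chr4:147985650-147985949 on the plus strand and S100a9 at chr3:90695672-90695971 on the minus strand.
Actc1: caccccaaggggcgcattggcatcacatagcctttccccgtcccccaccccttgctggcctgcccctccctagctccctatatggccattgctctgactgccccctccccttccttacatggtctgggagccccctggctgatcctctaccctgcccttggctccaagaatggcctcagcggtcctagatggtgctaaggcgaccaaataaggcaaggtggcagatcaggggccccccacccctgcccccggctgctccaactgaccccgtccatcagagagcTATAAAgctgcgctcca
Nppb: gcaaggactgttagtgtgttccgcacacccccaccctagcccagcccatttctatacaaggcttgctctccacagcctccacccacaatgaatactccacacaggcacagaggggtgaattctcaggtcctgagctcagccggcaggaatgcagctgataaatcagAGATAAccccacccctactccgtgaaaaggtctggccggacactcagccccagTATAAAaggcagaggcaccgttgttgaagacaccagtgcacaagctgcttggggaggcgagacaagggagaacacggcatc
S100a9: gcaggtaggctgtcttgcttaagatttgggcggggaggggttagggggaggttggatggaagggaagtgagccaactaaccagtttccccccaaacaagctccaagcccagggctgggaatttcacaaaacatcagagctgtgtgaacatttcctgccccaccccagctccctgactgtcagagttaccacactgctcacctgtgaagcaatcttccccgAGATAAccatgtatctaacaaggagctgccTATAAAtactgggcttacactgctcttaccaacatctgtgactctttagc
All 3 held TATAAA, which 13.6% of the 32851 promoters of the table hold, and Nppb and S100a9 also held AGATAA, which 11.2% hold. Among promoters of genes detected only in HF heart the shares were 11.6% and 5.94%, and among those of genes detected only in HF plasma 12.2% and 8.4%. Both groups come from the named mRNA genes, whose promoters held the 2 motifs at 10.5% and 7.96%. In the neutrophil list 6 of 13 promoters held AGATAA and 2 of 13 TATAAA, in the sarcomere list 3 and 7 of 28, and in the oxidative phosphorylation list 3 and 1 of 15. These are matches of letters and not binding sites.

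Genes were then described in 20 lists of 385 genes, with a single probe per gene, the one with the highest mean over HF heart and HF plasma. Over all 3462 genes, 2669 were detected in HF heart (77.1%) and 2298 in HF plasma (66.4%). Detection was only in heart for 842 (24.3%) and only in plasma for 508 (14.7%). Of the 1788 on both arrays, 425 were at least 2-fold higher in heart and 983 in plasma. Over all genes the median difference of heart minus plasma was -0.61 on the log2 scale. The lists of heart muscle, energy supply, vessel wall and matrix had medians well above this value. Those of liver, chemosensory receptors, T cells, eye, neutrophils and B cells had medians below it. A level that is not well above background enters these medians as measured. With genes detected on 1 array only set to their lower bound, and those on neither left out, the median was -0.70 over all genes, 5.48 for the sarcomere, 5.06 for fuel use, 2.46 for red cells and -2.80 for the receptors.

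Genes of the sarcomere, the contractile unit, were mostly detected only in heart. Of 20 genes, 13 were detected in heart and not in plasma, 4 were at least 2-fold higher in heart among those on both arrays, 2 were higher in plasma and 1 was on neither. The median level was 11.04 in HF heart and 4.08 in HF plasma, and the median difference was 7.19. Tpm1, the tropomyosin of the thin filament, had 16.80 in heart and 4.41, not well above background, in plasma, and all 7 of its probes had a higher value in heart, although 1 of them was detected on neither array.

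Troponin T of the heart, Tnnt2, shows how much a value can depend on the probe. All 9 of its probes were higher in heart, by 3.01 to 11.80 on the log2 scale, and 3 of them were detected in plasma. Myh6 went the other way. It encodes the α heavy chain of cardiac myosin, and its probe had 10.68 in HF heart and 14.38 in HF plasma, 13-fold higher in plasma. That probe was near 14.4 in control plasma and control whole blood as well, at 14.36 and 14.47. Tnni1, the slow troponin I, was the other sarcomere gene higher in plasma, with a log2 difference of -2.49.

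Genes of calcium handling and conduction did not share the pattern of the sarcomere. Of 21 genes, 4 were detected only in heart, among them Atp2a2, Cav3 and Popdc2. Of the 14 on both arrays, 1 was at least 2-fold higher in heart, 8 were higher in plasma and 5 lay within 2-fold. The plasma share was close to the 983 of 1788 over all genes on both arrays. The median over the list was -0.10. Kcnq1, a potassium channel of repolarization, had 6.91 in HF heart and 12.37 in HF plasma, and Gja5, a connexin of the conduction system, had 9.80 and 11.72. The side of Gja5 depended on the scaling, with signals before normalization of 1665 in heart and 1272 in plasma. Those of Kcnq1 were 177 and 2001. Without normalization the median of this list was 1.19.

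All 5 genes of the natriuretic peptide system were detected in HF heart. Nppa, atrial natriuretic peptide, was among the brightest genes of the heart, at 16.65, and was not well above background in HF plasma, at 2.65, so that heart was at least 2482-fold higher. The plasma value is the lowest the array gives. The receptor Npr1 was higher in heart by 6.27, and the clearance receptor Npr3 was detected only in heart. Corin, the protease that cuts the precursor of Nppa, had 10.98 in plasma and was 7.88-fold higher there than in heart, so that hormones and processing enzyme stood on opposite sides.

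The 7 cardiac transcription factors were divided. Gata6 was detected only in heart, and Nkx2-5, the homeobox factor of the early heart, was higher in heart by 5.54. Gata4 was bright in both, at 12.13 in heart and 11.62 in plasma, within 2-fold. Mef2a had 9.42 and 12.99, and Hopx, a small homeodomain protein, 7.68 and 14.47, so that both were higher in plasma. In control plasma Gata4 was 8.25 and Hopx 10.59.

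Energy genes were among those with the widest gap between the samples. Of 20 genes of oxidative phosphorylation, all were detected in HF heart and 16 in HF plasma, and for 14 of these 16 heart exceeded plasma at least 2-fold. The list had a median difference of 6.46, from 13.75 in heart to 8.22 in plasma. Cox6a2, the subunit of cytochrome oxidase of heart and skeletal muscle, had 16.51 in heart and 7.28 in plasma, 599-fold higher in heart. Cox8a, a subunit of the same complex found in most tissues, had 15.13 and 11.30, a ratio of 14.2.

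Of 23 genes of fuel use, 11 were detected only in heart and 8 more were at least 2-fold higher there. Fabp3, which carries fatty acids in the muscle cell and is itself released into blood as a protein after infarction, had 15.89 in heart and 5.46 in plasma, 1378-fold higher in heart. Mdh2, a mitochondrial enzyme of the citric acid cycle, had 16.11 and 8.60. Pfkm, muscle phosphofructokinase, was the other way round at 11.04 and 15.89, one of 4 genes of the list higher in plasma.

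The lists of the supporting cells of the heart had medians on the side of heart, with members on both sides. Of 16 genes of fibroblasts and matrix, 7 were detected only in heart, among them Col1a2 and Col3a1, and the median difference was 3.16. Of the 9 on both arrays, 4 were at least 2-fold higher in heart and 3 in plasma, namely Fbln2, Mfap2 and Aspn. Mgp, a matrix protein that holds back calcification, was bright in both, at 15.48 in heart and 12.30 in plasma. Of 18 endothelial genes, 10 were detected only in heart, and the median difference was 4.69. Of the 7 on both arrays, 5 were at least 2-fold higher in heart and 2 in plasma, Eng and Cd300lg. Cav1, the coat protein of caveolae, was at least 533-fold higher in heart, at 14.43 against 4.27. Flt1 was the only gene of these 2 lists detected in plasma and not in heart.

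Most red cell genes were brighter in heart than in plasma of HF mice. Hba-a1, an α globin, had 16.74 in HF heart and 13.49 in HF plasma, and Hbb-b1, a β globin, 16.50 and 7.70, 445-fold higher in heart. Globin genes are near copies of each other, and the accession of the Hbb-b1 probe is that of Hbb-bt in RefSeq, so a signal may be shared. Of 18 red cell genes 9 were detected only in heart, among them Alas2 and Gypc. Of the 7 on both arrays 4 were higher in heart and 3 in plasma, among them Car1 and Nfe2, and the median difference over the list was 4.09. In the control pair the list ran in the other direction, with a median of -2.77. There Hba-a1 had 16.70 in heart and 17.53 in plasma, and Hbb-b1 15.92 and 17.58. The heart arrays of HF and control hardly differed for these 2 globins, and the plasma arrays did.

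Neutrophil genes were detected on both arrays. All 16 were detected in HF heart and 14 in HF plasma, 9 of these 14 at least 2-fold higher in plasma. Over all genes on both arrays the count was 983 of 1788, not far from this share. The list median was -1.20, and without normalization it was 0.33, on the side of heart. Ltf, the iron-binding lactoferrin of granules, had 9.97 in heart and 12.89 in plasma, and Camp, the precursor of an antimicrobial peptide, had 9.60 and 11.89. Before normalization the signal of Camp was 1437 in heart and 1419 in plasma, and that of Ltf 1882 and 2944. In control mice Ltf was 4.28 in heart and 5.26 in plasma. Among the 14 genes on both arrays, Ngp and Alox5ap were the 2 at least 2-fold higher in heart. Chi3l3 and Ncf4 were detected only in heart, Chi3l3 at 7.81 against 4.62 in plasma, at least 5.42-fold higher, and Ncf4 at 5.82 against 4.34.

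T and NK cell genes leaned to plasma. Of 12 T and NK cell genes, 6 (50%) were detected only in plasma, among them Cd247, Cd28 and Cd8a, and 1 (8.33%) only in heart, Ccr7. Over all genes the shares were 14.7% only in plasma and 24.3% only in heart. The T and NK list median was -2.25. Cd3e, a chain of the T cell receptor complex, had 8.93 in heart and 9.24 in plasma, within 2-fold. Of 10 B cell genes 7 were on both arrays and 4 favoured plasma by 2-fold or more, such as Cd37 at 6.99 and 11.54, a share close to the 983 of 1788 over all genes on both arrays. A further 2 B cell genes were detected only in heart and 1 only in plasma. The B cell median was -1.15, and 0.30 without normalization. Platelet genes had a median of -0.28, with 3 of 12 detected only in heart and 1 only in plasma. Their heart-only share of 25% was close to the 24.3% over all genes.

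The macrophage list was divided. The complement genes C1qa, C1qb and C1qc, made by tissue macrophages, were higher in heart, with C1qa at 13.11 and 6.97 and C1qc at least 168-fold higher. Ly6c2, a mark of young monocytes, had 13.47 in heart and 13.09 in plasma. The list as a whole had a median of 0.19.

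Liver genes were detected more often in plasma than in heart. Of 31 genes 25 were detected in HF plasma (80.6%) and 19 in HF heart (61.3%), against 66.4% and 77.1% over all genes. Detection was only in plasma for 10 and only in heart for 4, with a median difference of -2.69. Serpina11 had 5.64 in heart and 13.89 in plasma, and Apoc4, an apolipoprotein, 6.59 and 13.86. Among those detected only in plasma were Hc, complement component C5, and Hnf4a, a transcription factor of the hepatocyte. Mup1 and Mup3, of the urinary protein family, were also detected only in plasma, whereas Mup12 and Mup19 were detected only in heart, and members of that family have near-identical sequences. Albumin was not in the list, and Crp was detected on neither array.

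A list of eye genes was included because of the way blood was drawn. Of 15 genes, 9 were detected in HF plasma and 13 in HF heart, and the median difference was -1.59. Opn4, Bfsp1, Bfsp2 and Gnat2 were detected only in heart and Crygd only in plasma. Of the 8 on both arrays, 7 were at least 2-fold higher in plasma and 0 in heart. Over all 1788 genes on both arrays these counts were 983 and 425. Opn4, the pigment melanopsin, had 9.97 in heart and 2.65 in plasma, at least 24.2-fold higher in heart. Dct, an enzyme of pigment cells, had 8.58 in heart and 13.82 in plasma. The part of eye tissue in the plasma values was not tested.

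Chemosensory receptors, which are known for their expression in the nose, lay towards plasma. Of 77 genes for smell and pheromone receptors, 62 were detected in HF plasma (80.5%) and 37 in HF heart (48.1%), against 66.4% and 77.1% over all genes. Detection was only in plasma for 28 and only in heart for 3, with a median of -2.76. Olfr1465 had 7.28 in HF heart and 17.32 in HF plasma, 1048-fold higher in plasma, and 12.36 in control plasma. Of the 34 on both arrays, 27 exceeded 2-fold towards plasma and 0 towards heart, sizes that carry no test. Vmn1r and Vmn2r genes are close copies of one another, so that their probes may not be independent.

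Negative control probes gave signal in plasma as well. Of 1200 spots of these 20 probes, 149 (12.4%) passed the detection mark in HF plasma and 6 (0.5%) in HF heart, and in plasma 2 of the 20 probes were so on more than 30 of their 60 spots. In HF plasma 25588 spots shared 1 lowest value. The part of such signal in the plasma-only probes, the receptor genes included, was not tested.

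**Figure D3:**
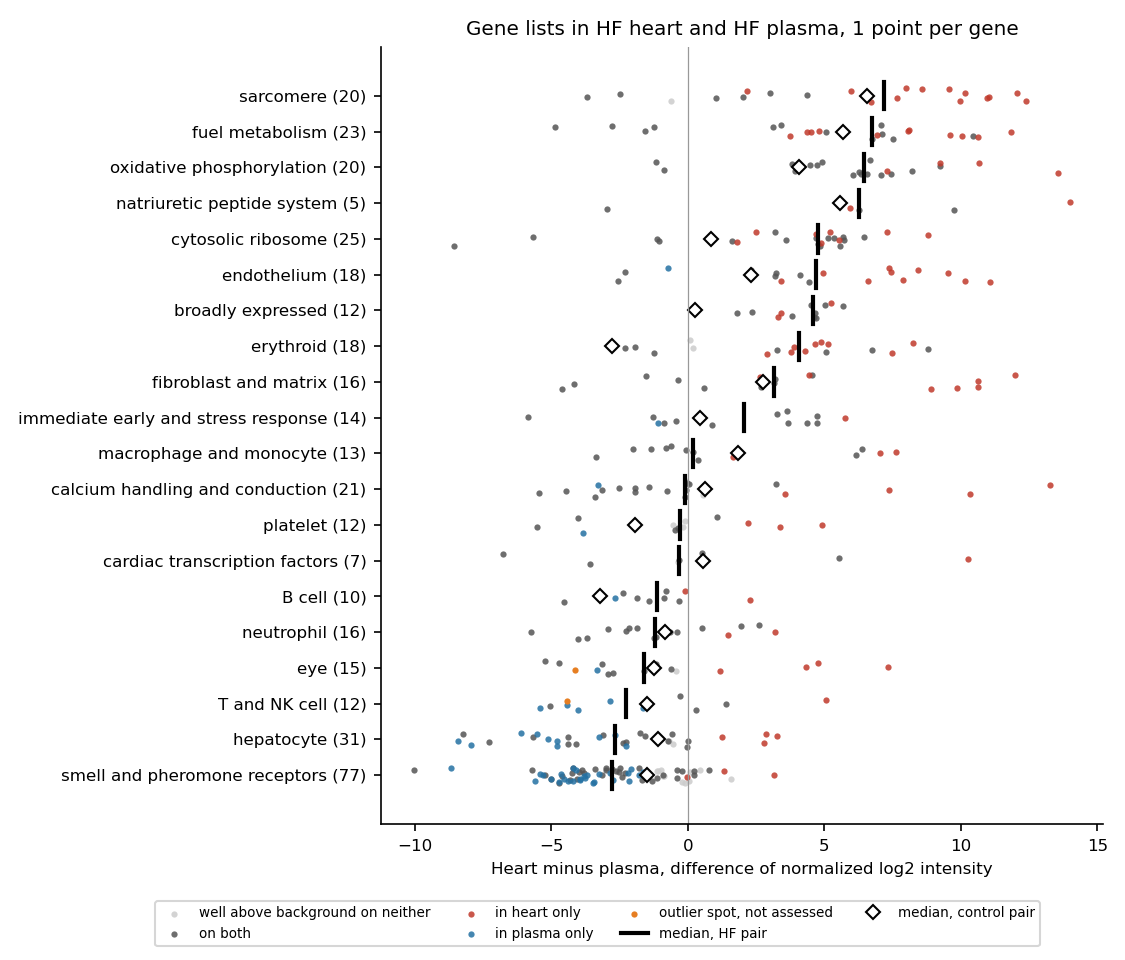
Difference of normalized log2 intensity, heart minus plasma, for the genes of 20 lists, 1 point per gene, coloured by detection in HF. The black bar is the median of the HF pair and the open diamond that of the control pair. Sarcomere genes lie on the side of heart, with a median of 7.19, receptor genes on the side of plasma, with a median of -2.76, and the red cell list has its medians on opposite sides, 4.09 in HF and -2.77 in control.

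Genes that most cells express were higher in heart. All 12 broadly expressed genes were detected in HF heart and 9 in HF plasma, and all 9 were at least 2-fold higher in heart, with a median over the list of 4.57. Tpt1 had 16.81 and 11.11, and Oaz1 16.46 and 11.82. Of 25 genes of the cytosolic ribosome, 8 were detected only in heart and 12 more were at least 2-fold higher there, with a median of 4.78. Rpl38 had 2 probes that disagreed, one higher in heart by 5.36 and the other higher in plasma by 2.11. In the control pair the medians of these lists were 0.26 and 0.86. There the broadly expressed genes went both ways, 5 at least 2-fold higher in heart and 3 in plasma, from 6.18 for Gapdh to -3.50 for Ftl1.

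Immediate early genes, switched on within minutes of a stimulus, were mixed. Junb had 11.43 in HF heart and 17.30 in HF plasma, and 11.26 in control plasma. Jund, of the same family, had 14.76 and 10.03. Hspa1b, a heat shock protein, had 13.15 and 8.80. The list median was 2.06, and 0.44 in the control pair.

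A set of 15 genes was printed as 20 spots each, which gives an error within an array. The median SD over spots was 0.05 in HF heart and 0.35 in HF plasma on the log2 scale. Of the 15 genes, 14 were detected in HF heart, 4 of them only there, and 10 in HF plasma. Of the 10 detected on both arrays, 7 were at least 2-fold higher in heart, by 1.90 to 6.35, and 2 at least 2-fold higher in plasma. Gapdh had 17.02 ± 0.07 (SD over 20 spots) in heart and 13.41 ± 0.27 in plasma, 12.2-fold higher in heart. Ppia, a prolyl isomerase, had 14.45 ± 0.04 and 10.94 ± 0.17.

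Nono, a protein of nuclear paraspeckles, and G6pd2 were the 2 at least 2-fold higher in plasma. Nono had 10.10 ± 0.05 in heart and 14.42 ± 0.08 in plasma, 20-fold higher in plasma. The control pair showed the same side, at -4.78. Tfrc, the transferrin receptor, was not well above background in HF plasma, at 3.51 ± 0.87, and was 11.96 ± 0.06 in HF heart, at least 96-fold higher. All 9 differences of 2-fold and more between detected values were larger than the SDs over spots of both arrays added together, also that of Hsp90ab1, which had the largest SD in plasma, 1.75. The spots share 1 mixture of RNA, so this spread holds nothing of the difference between mice.

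**Figure D4:**
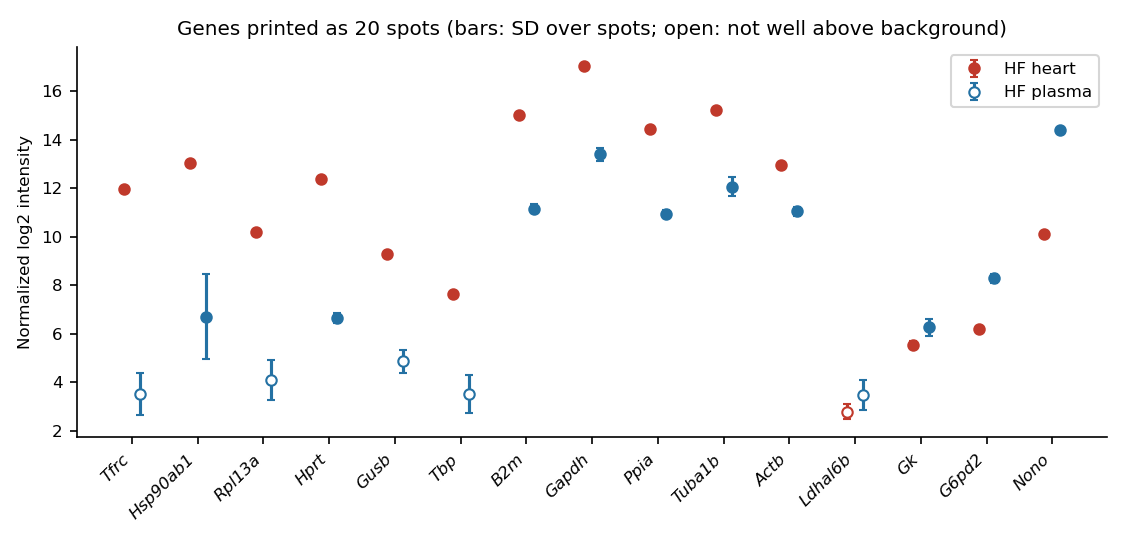
Normalized log2 intensity of 15 genes in HF heart (red) and HF plasma (blue), ordered by the difference of heart minus plasma. Points are means over 20 spots, bars the SD over spots, and open points are not well above background. Nono lies at the right end, at 10.10 in heart and 14.42 in plasma.

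By the rule for single genes, the 8 brightest mRNAs of HF heart that were not detected in plasma were Tpm1, Atp2a2, Nppa, Cox8b, Ctgf, Actc1, Tnnt2 and Gpx3. Ctgf, connective tissue growth factor (Ccn2 in RefSeq), had 16.40 in HF heart and 11.68 in control heart, and its plasma level went from not well above background in HF, at 2.65, to 8.56 in control. Gpx3, the secreted glutathione peroxidase, had 15.21 in HF heart and was at least 917-fold higher there. Mt2, a metallothionein, was detected on both arrays and was among the 5 largest differences towards heart, at 14.80 and 6.01, 442-fold.

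The brightest mRNAs of HF plasma that were not detected in HF heart were Gm364, Gm757 (Rnf224 in RefSeq), Kcng1, Dbt, Pde8a, Spock1, 1700101E01Rik and Mamdc4. Gm364 had 14.58 in HF plasma and 3.81, not well above background, in HF heart, at least 932-fold higher in plasma, and 5.87 in control plasma. Dbt, a subunit of the branched-chain keto acid dehydrogenase, had 13.65 in HF plasma and 5.23 in control plasma. Spock1, a proteoglycan, had 13.46 and 6.60 in the same arrays.

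Among mRNAs detected on both arrays the largest differences towards plasma belonged to Trim15, Acvr1c, Olfr1465, Tmem93 (Emc6 in RefSeq) and Ring1. Trim15, a ubiquitin ligase, had 5.66 in HF heart and 16.16 in HF plasma, 1452-fold higher in plasma, and 9.79 in control plasma. Acvr1c, the receptor ALK7 of the TGF-β family, had 5.13 and 15.57. Ring1, a polycomb protein, had 5.19 and 14.75, and in the control pair 5.61 and 6.02, within 2-fold.

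The brightest LncRNAs of HF heart that were not detected in HF plasma were AV319250, AV125165, BY473064, MM9LINCRNAEXON11023+ and MM9LINCRNAEXON11267+. AV319250 had 14.47 in HF heart and, not well above background, 4.49 in HF plasma, at least 546-fold higher in heart, and in control it had 15.00 and 7.49. MM9LINCRNAEXON11023+ had 12.41 in HF heart and 5.10, not well above background, in HF plasma, and 12.73 and 13.47 in the control pair. All 5 were detected in control plasma, at 7.49 to 13.47.

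The brightest LncRNAs of HF plasma not detected in HF heart were MM9LINCRNAEXON10569-, mouselincRNA1592+, humanlincRNA1211+, AI561687 and CR515255. MM9LINCRNAEXON10569- had 15.84 in HF plasma and 4.61, not well above background, in HF heart, at least 2229-fold higher in plasma. Its level in control plasma was 8.26. AI561687 had 14.61 in HF plasma and was not well above background in HF heart, control heart or control plasma.

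Of LncRNAs detected on both arrays, MM9LINCRNAEXON10626-, MM9LINCRNAEXON11149+ and MM9LINCRNAEXON11813+ had the largest differences towards heart. The first had 12.75 in HF heart and 5.72 in HF plasma, 130-fold, with a within-array error of 0.31 on the log2 difference of 7.03. Towards plasma the largest were those of MM9LINCRNAEXON11817-, MM9LINCRNAEXON10574+ and MM9LINCRNAEXON10013-. MM9LINCRNAEXON11817- had 4.86 in HF heart and 16.87 in HF plasma, 4137-fold higher in plasma, and 8.25 in control plasma. All 3 were 16.81 or more in HF plasma and between 8.25 and 9.29 in control plasma.

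LncRNA probes of different origin were not detected alike. Of 3457 probes named MM9LINCRNAEXON, 24.7% were detected in HF heart and 29.5% in HF plasma. Of 691 probes of mouselincRNA the shares were 11.1% and 24.9%, and of 1217 of humanlincRNA 9.45% and 20%. Those named after expressed sequences, 1209 probes, had 20.9% and 27.3%. In these 4 sets and in the ultraconserved regions, at 11.3% and 15.5%, plasma had the higher share.

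Among those detected on both arrays, 49 of 173 probes named after expressed sequences (28.3%) were at least 2-fold higher in heart. This was the largest share among these sets, but it was close to the 30.2% of all probes detected on both arrays. For humanlincRNA the count was 1 of 92 (1.09%). The 962 ultraconserved probes form 481 pairs of both strands of a region. Detection only in heart was found for both strands of 4 regions and for a single strand of 48, and detection only in plasma for both strands of 4 and a single strand of 91. In 6 regions one strand was detected only in heart and the other only in plasma.

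The control pair gave the same 2 tissues in mice that had received saline, and was read for the same probes. Heart and plasma of HF mice and control heart share a scan time, and control plasma was scanned at another, so that scan and condition cannot be told apart for that array. Of the 511 LncRNA probes detected only in HF heart, 263 (51.5%) were detected only in heart in the control pair too, 188 were detected on both control arrays and 3 only in control plasma. Over all LncRNA probes 10.9% were detected only in control heart. Of the 1042 detected only in HF plasma, 145 (13.9%) were detected only in plasma in the control pair, 351 on both, 124 only in heart and 422 on neither, against 5.35% detected only in control plasma over all LncRNA probes. In control plasma 47.6% of the 1042 were detected, against 25.6% of all LncRNA probes.

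The side of the difference was then compared with the control pair. Among LncRNA probes detected on both HF arrays, 546 of the 623 higher in HF plasma (87.6%) had a higher value in control plasma than in control heart, and 74 of the 101 higher in HF heart (73.3%) a higher value in control heart. Of all 872 LncRNA probes detected on both HF arrays, 661 (75.8%) had the higher value in control plasma and 211 (24.2%) in control heart. The median difference of the 623, which the HF pair chose, was -3.54 in HF and -1.94 in control. Of the mRNA probes, 356 of 453 (78.6%) and 937 of 1125 (83.3%) kept their side, against 37.2% and 62.8% of the 2030 mRNA probes detected on both HF arrays. The HF and control arrays share no sample.

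Of the 1013 mRNA probes detected only in HF heart, 767 (75.7%) were detected on both arrays of the control pair and 198 (19.5%) only in control heart, against 81.1% and 15.8% of all mRNA probes. Of the 621 detected only in HF plasma, 442 (71.2%) were detected on both control arrays and 179 only in control heart. None of these 621 was detected only in control plasma, which the choice of the list fixes, since each had to be detected on a heart array.

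**Figure D5:**
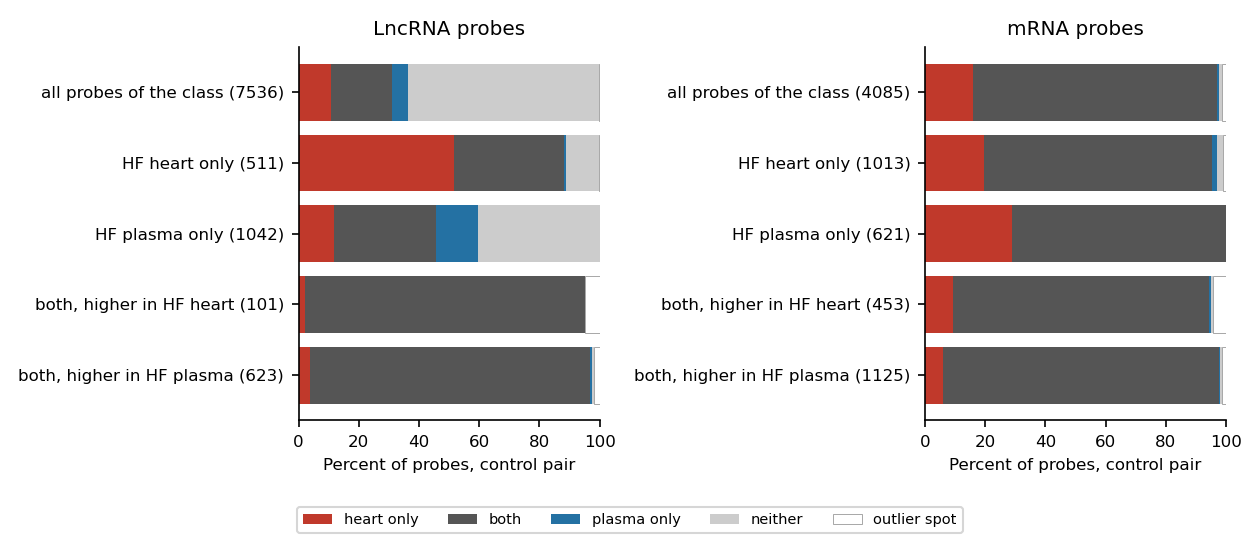
Percent of probes detected in heart only, on both arrays, in plasma only or on neither in the control pair, for probes grouped by their detection in the HF pair, with LncRNA on the left and mRNA on the right. White marks probes with an outlier spot. Of the LncRNA probes detected only in HF heart 51.5% were also detected only in heart in control, and of those only in HF plasma 13.9% only in plasma.

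Whole blood of HF mice, which had no part in the grouping of probes, was read for the same probes. Of the 511 LncRNA probes detected only in HF heart, 179 (35%) were detected in HF whole blood, and of the 1042 detected only in HF plasma 308 (29.6%), against 22.3% of all LncRNA probes. Of the 1013 heart-only mRNA probes 726 (71.7%) were detected in HF whole blood, and of the 621 plasma-only ones 296 (47.7%), against 73.6% of all mRNA probes. The heart-only share of mRNA probes was thus close to that of the whole class. All 20 sarcomere genes were detected in HF whole blood, 6 in HF plasma and 6 in control whole blood. Over all 3462 genes the counts on these 3 arrays were 2611, 2298 and 2242. Actc1 had 12.99 in HF whole blood and was not well above background in control whole blood, at 5.64. Nppa had 15.52 and, not well above background, 2.73 in the same arrays.

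Genes with several probes set a limit on the reading of single probes. Of 439 genes with at least 2 probes, 167 (38%) had all probes in the same detection class, and 30 had a probe detected only in heart beside another detected only in plasma. Where at least 2 probes of a gene were detected on both arrays, 127 of 175 genes (72.6%) had all of them on the same side.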

How the data were processed

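RNA of heart, plasma and whole blood was measured on 6 arrays, 1 for each condition. The authors read the images with Agilent Feature Extraction (version 11.0.1.1, per the labels) and deposited, for each spot, a background-subtracted intensity in a single colour that is not normalized between arrays, together with flags of another kind for detection and outliers. Control spots were left out, repeated spots were averaged as log2 intensities, and the 6 arrays were quantile normalized. Detection took the well-above-background flag, without an outlier flag, on most spots. LncRNAs were named from probe names and mRNAs from parts of the study's probe lists, of which only names were used; 3969 of the 4085 mRNA accessions matched RefSeq. The error within arrays combines the error that the software gives for each spot, with a median of 0.23 on a log2 difference of probes detected on both arrays. The number of arrays limits the precision.

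Named genes were the 5 markers, the 3 brightest genes of each list, and, for mRNAs and LncRNAs, the brightest probes detected on 1 array and the largest differences among those on both. Genes named beside these were chosen after their values were seen. The members, lists and rules were chosen with earlier results of these data known. Alternatives were 75th percentile scaling, quantile normalization of the 2 arrays, a normexp background (offset 50), other detection rules, thresholds of 1.5 and 4-fold and another LncRNA probe set. The setting without normalization between arrays, and a detection limit without the 2 brightest negative probes, were chosen after the data were seen. On simulated pairs with 200 of 872 LncRNA probes or of 2030 mRNA probes changed 4-fold, 100% were recovered and 0 unchanged probes called at the 2-fold limit. This simulation holds noise within arrays and no spread between mice. A 4-fold change lies well beyond both the 2-fold limit and the within-array error, which had a median of 0.23 on the log2 scale. The setting thus fixed the outcome beforehand, and it does not measure how reliable the calls are. Python 3.11.15, numpy 2.4.6, pandas 2.3.3, matplotlib 3.10.9, R 4.3.3 and limma 3.58.1 were used.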

Additional observations from a re-analysis of the deposited data

Results flagged for a closer look

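The red cell list differed between the HF pair and the control pair. Its median difference of heart minus plasma was 4.09 on the log2 scale in HF and -2.77 in control. Hbb-b1 showed the same change of side, at 8.80 in HF and -1.67 in control. Dbt went the opposite way, at -10.07 in HF, where it was not well above background in heart, and 1.86 in control. These results stand out because the 2 pairs have opposite signs. With 1 array per condition the difference between the pairs was not tested.

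Negative control probes, which belong to no comparison above, gave signal in HF plasma: 12.4% of their 1200 spots were marked well above background, against 4.33% in control plasma and 0.5% in HF heart. In HF plasma 118 of the 149 spots belonged to 2 of the 20 probes. The other 18 probes had 31 of 1080 spots (2.87%), against 50 of 1080 (4.63%) in control plasma. Of these 18, 1 probe alone gave 11 of the 31 spots in HF plasma and 46 of the 50 in control plasma. The 18 probes therefore do not rank the 2 plasma arrays. The 2 brightest probes of HF plasma set the 99th percentile of 110.6 there, which was 32.0 without them. Their part in the detection of other probes in HF plasma was not tested.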

How the results depend on the processing

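Of 64 recomputed counts, 45 stayed within 1.5 times the value reported. With the weaker detection flag, LncRNA probes detected only in plasma numbered 1725, and those on both arrays and at least 2-fold higher in heart or in plasma 315 and 1343. For mRNA probes it gave 467 only in heart, 102 only in plasma, and 982 and 1705 among those on both. Detection above the 99th percentile of the negative control spots of 18 probes, without the 2 brightest in HF plasma, left all 8 counts within 1.5 times, with 579 LncRNA probes only in heart and 755 only in plasma, and 1272 and 452 mRNA probes. Above the 99th percentile of all negative control spots there were 838 LncRNA probes only in heart, 295 only in plasma and 38 on both and higher in heart, and 1943, 161 and 125 mRNA probes. The study's own probe list, as another LncRNA set, held 4326 probes, of which 1620 were in the set of 7536. In it 804 were only in heart and 896 only in plasma, and 499 and 1264 on both and higher in heart or plasma. The 2 sets differ in size and members, so these counts do not compare directly with those above. The LncRNA results thus depend on which probes are taken as LncRNAs. Without normalization 179 LncRNA probes on both arrays were higher in heart, and 770 mRNA probes were higher in heart and 683 in plasma.

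Of the list medians and marker differences at least 1 in size, 3 changed sign, all without normalization: the neutrophil list to 0.33, the B cell list to 0.30 and S100a9 to 0.47. Of those nearer to 0, the calcium list went from -0.10 to 1.19, the cardiac transcription factors from -0.33 to 1.26 and the platelet list from -0.28 to 0.87, and with normexp the last 2 were 0.10 and 0.07. The cause was not tested beyond the scaling itself. Scaling to the 75th percentile moved the median of the LncRNA probes on both arrays by 0.31, normexp by 0.98 and no normalization by 1.63. Leaving out a replicate was not possible with 1 array per condition. No paired analysis was possible because each condition had a single array and the labels carry no replicate numbers. Signal over background limits HF plasma, where 25588 spots shared the lowest value, so differences towards heart of probes not detected in plasma are bounds only.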

Other observations

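Heart genes were also measured in whole blood. The median level of the 20 sarcomere genes was 7.84 in HF whole blood, 4.78 in control whole blood, 4.08 and 4.05 in plasma of HF and control mice. The 5 genes of the natriuretic peptide system had medians of 12.16 in HF whole blood and 4.29 in control whole blood, and 5.56 in HF plasma. Different genes set these medians, Corin in HF whole blood and the receptor Npr1 in the others, so they do not follow a single gene. Corin had 9.58 in control whole blood. Nppb had 12.18 in HF whole blood and, not well above background, 3.59 in control whole blood. Of 16 genes of fibroblasts and matrix, 14 were detected in HF whole blood, 7 in control whole blood, 9 in HF plasma and 13 in control plasma. Plasma of control mice gave detection for 9 of the 20 sarcomere genes, and plasma of HF mice for 6. Among all 3462 genes, whole blood gave detection for 2611 in HF and 2242 in control, and plasma for 2298 and 2824. The higher plasma count of control mice was thus also found over all genes together and was not particular to the sarcomere and matrix lists. It did not hold in every list. Of the neutrophil genes 14 were detected in HF plasma and 11 in control plasma, and of the liver genes 25 and 24.

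The neutrophil list had a median of 7.90 in HF heart against 4.89 in control heart. In plasma its median was 9.41 for HF and 6.75 for control, and in whole blood 10.38 and 6.64. The B cell list had medians of 5.52 and 5.10 in heart, HF before control, and of 6.35 and 9.31 in plasma. These are normalized log2 levels with no test.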
